A study of Mus musculus with 2 samples.

Results

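The respiratory chain is the set of protein complexes in the inner mitochondrial membrane that carries electrons from NADH and succinate to oxygen and uses the resulting proton gradient to make ATP. Its nuclear-encoded genes were examined in Lin-c-kit+Sca1+ (LSK) cells sorted from mouse bone marrow, the fraction that holds haematopoietic stem cells and their earliest progenitors. Genes were taken by symbol. They were all Nduf genes (complex I), Sdha to Sdhd (complex II), Uqcr genes and Cyc1 (complex III), Cox4 to Cox8 genes (complex IV), Atp5 genes (complex V) and the cytochrome c gene Cycs. This gave 73 genes, measured by 101 probe sets, of 8251 genes named on the array. Complex I contributed 31 genes, complex II 4, complex III 8, complex IV 15 and complex V 14. The series has 2 samples of 1 group, sample 1 and sample 2, each hybridised to an Affymetrix mouse expression array after 2 rounds of RNA amplification. No treatment, genotype, strain, age or second condition is given for either, nor whether they came from different animals or sorts. The samples are therefore described side by side without a test, and their spread may be technical.

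As background, complex I takes electrons from NADH and complex II takes them from succinate, where it also serves as an enzyme of the Krebs cycle. Ubiquinone passes the electrons to complex III, cytochrome c carries them to complex IV, and complex V is the ATP synthase. Quiescent haematopoietic stem cells are known to rely strongly on glycolysis, and commitment and division go with greater use of oxidative phosphorylation. Subunits encoded by mitochondrial DNA were not analysed here, since 0 of the listed mitochondrial gene symbols had a probe set.

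Signals below are quantile-normalized array intensities, and a difference is log2(sample 1) minus log2(sample 2), with signals under 20 set to 20 before the logarithm. A fold against a signal under this floor is a lower bound, written "at least". A measured gene is one with a probe set on the array. It counted as exceeding the control level where at least 1 of these passed, in both samples, the 90th percentile of 15 probe sets for bacterial genes (12.1 in sample 1 and 8.91 in sample 2). The sorting antigen gene Kit gave 25.8 in sample 1 and 19.4 in sample 2, and Sca-1 (Ly6a) was not analysed here. Of 11 measured sorting and lineage genes 4 were above the control level, beside 57.0% of all named genes. These 4 were Kit, Ptprc, Ms4a1 and Ly6g, while the T cell genes and Itgam were not above it. The samples differed in other ways. All 9 probe sets for the spiked hybridisation controls were brighter in sample 2. The control probe sets along the Gapdh transcript differed by 0.54 at the 3′ end, 0.90 in the middle and 1.29 at the 5′ end. Those along the beta-actin transcript differed by -0.95, 0.25 and 0.15. For both transcripts, sample 2 was thus weaker relative to sample 1 at the 5′ end than at the 3′ end. The part of this in the differences below was not tested.

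Most respiratory chain genes were above the control level, and most of these were higher in sample 1. Of the 73 genes 58 exceeded the control level in both samples (79.5%), beside a background of 57.0% of all named genes. Among these 58 genes, 41 had more signal in sample 1 and 15 had more in sample 2, while 2 stayed at the floor, whereas 47.1% of all 4707 named genes above the control level were higher in sample 1. The median difference was 0.49, or 1.40-fold, beside 0 for all named genes. A difference of 2-fold or more towards sample 1 was seen for 15 of the 58, where the background was 11.0%. In the other direction there were 3 of 58, where the background was 9.62%. The backgrounds of 57.0%, 47.1%, 11.0% and 9.62% also hold for the counts by complex and gene list below, unless these are limited to genes above the floor. The spread of the 2 samples, as an SD on the log2 scale, was 0.76 over the respiratory chain genes and 0.59 over all named genes above the control level. A shift that the genes share enters this SD. Genes at the floor in both samples, 2 of the 58 and 447 of the 4707, add 0 to it. Over genes with both signals above the floor it was 0.77 for the respiratory chain and 0.62 for all named genes.

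**Figure D1:**
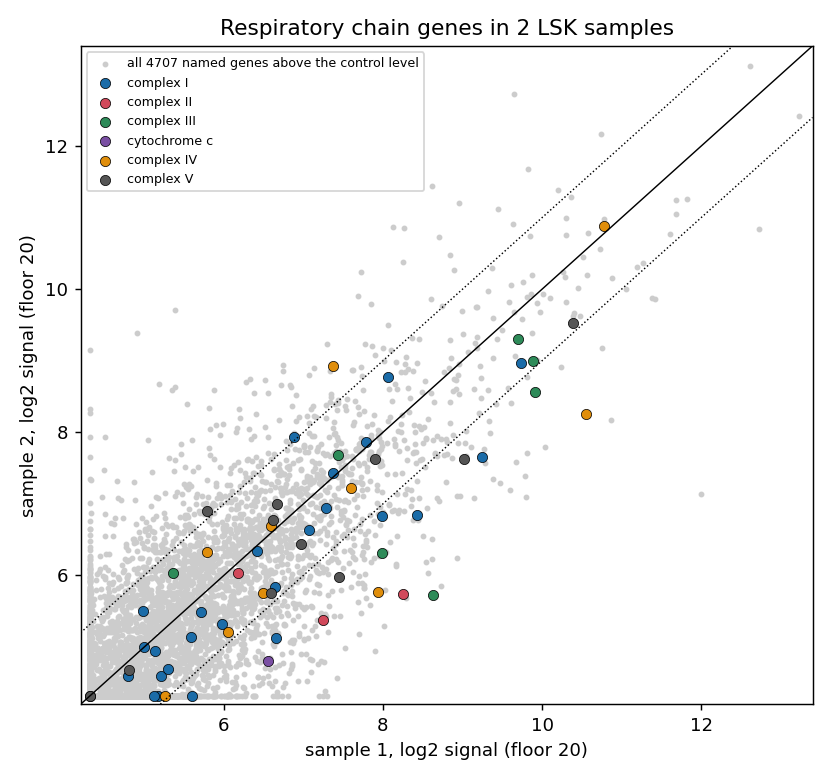
Log2 signal (floor of 20) of each gene in sample 1 (x axis) and sample 2 (y axis). Grey points are all 4707 named genes above the control level, coloured points the 58 respiratory chain genes among them, the solid line marks equality and the dotted lines a 2-fold difference. Of the coloured points, 15 lie on or beyond the lower dotted line and 3 beyond the upper one.

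The count towards sample 1 depended on the kind of probe set. The manufacturer adds a letter (f, g, i, r or s) to the name of a probe set whose probes are shared with similar sequences or broke its selection rules. Of the 15 genes, 9 rested on such a tagged probe set. Among the 17 respiratory chain genes with a tagged probe set the median difference was 1.15, and among the 41 others it was 0.38. Tags made little difference over all named genes, with 10.2% of tagged and 11.2% of untagged ones 2-fold or more higher in sample 1. With untagged probe sets alone, a comparison added after the data were seen, 7 of 46 respiratory chain genes were 2-fold or more higher in sample 1, beside a background of 11.3%, and 2 of 46 in sample 2, beside 8.97%. The 46 were those above the control level of 60 (background 53.7%), and their median difference was 0.36. With all probe sets but only genes above the floor in both samples, another comparison added later, 37 of 52 were higher in sample 1 (background 50.2%). Of the 52, 14 were higher there by 2-fold or more (background 11.9%) and 3 were lower by as much (background 10.7%).

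Complex II showed the largest median difference of the complexes, 1.87 over the 3 genes above the control level, and these 3 were all higher in sample 1. Sdhb, the iron-sulphur subunit, gave 305 in sample 1 and 53.3 in sample 2, a 5.73-fold difference (log2 SD 1.78, n = 2). Sdhd, a membrane anchor that takes part in ubiquinone binding, had 152 in sample 1 and 41.7 in sample 2, a 3.65-fold difference (6.32 ± 1.32, SD, n = 2). The other anchor gene, Sdhc, had nearly equal signals of 72.7 in sample 1 and 65.6 in sample 2. Sdha, the flavoprotein that oxidises succinate, had 23.2 in sample 1 and 2.65 in sample 2, and was not above the control level in sample 2. The median of complex II therefore rests on 2 of its 4 genes. It was 1.04 over all 4 measured genes, and 1.01 with untagged probe sets alone, where Sdhb drops out.

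Complex III genes had a median difference of 0.89, or 1.85-fold. Of 7 genes, 5 were higher in sample 1 (background 47.1%) and 3 were higher there by 2-fold or more (background 11.0%). With untagged probe sets alone the median was 0.40, as Uqcrb and Uqcrc2 drop out. Uqcrb, a small subunit next to the quinone site, had 395 in sample 1 and 52.9 in sample 2. At 7.48-fold this was the largest difference among the 58 genes (log2 mean 7.18 ± 2.05, SD, n = 2). The genes of the core proteins, which form the matrix-facing part of the complex, were both higher in sample 1. Uqcrc1 had 255 in sample 1 and 79.7 in sample 2 (3.20-fold), and Uqcrc2 had 963 in sample 1 and 379.9 in sample 2 (2.54-fold). Cyc1, the cytochrome c1 that hands electrons to cytochrome c, had 943 in sample 1 and 509.7 in sample 2. Its other probe set gave 224 in sample 1 and 140.5 in sample 2, the same direction.

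The small subunits of complex III were mixed. Uqcrq had 831 in sample 1 and 631 in sample 2. Uqcr10 had 173 in sample 1 and 205 in sample 2, and Uqcrh, the hinge protein that helps cytochrome c1 meet cytochrome c, had 41.2 in sample 1 and 65.8 in sample 2. These were the 2 complex III genes with more signal in sample 2. Uqcr11 had 28 in sample 1 and 8.05 in sample 2, and the second value was not above the control level. The soluble electron carrier between complexes III and IV went with the larger subunits. Cycs had 93.7 in sample 1 and 27.9 in sample 2, a 3.36-fold difference (5.68 ± 1.24, SD, n = 2).

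**Figure D2:**
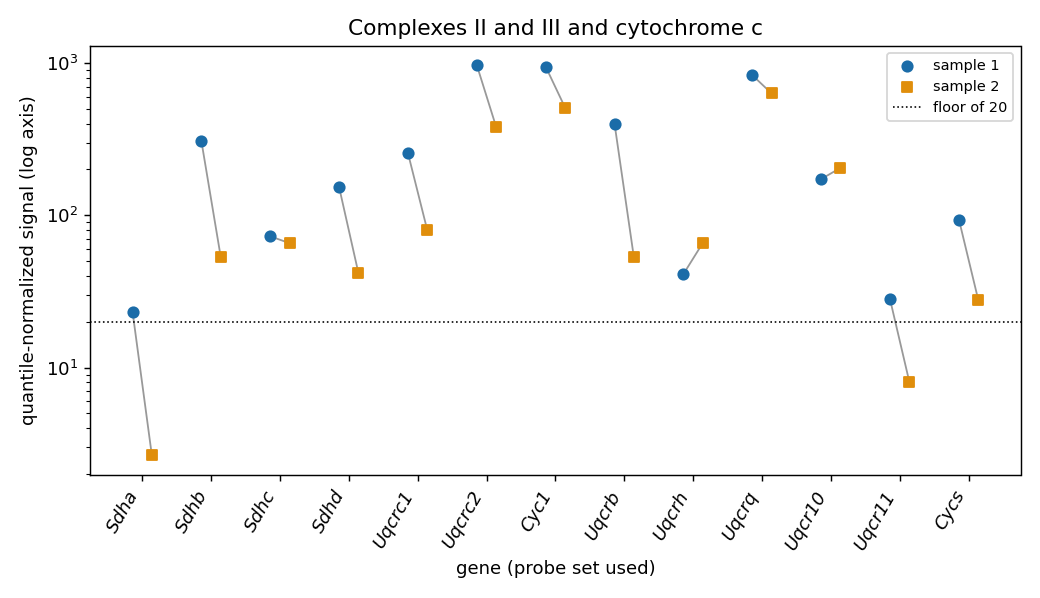
Quantile-normalized signal (log axis) of each complex II and III gene and of Cycs in sample 1 (blue circles) and sample 2 (orange squares), with a grey line joining the 2 samples of a gene and a dotted line at the floor of 20. Sdhb, Sdhd, Uqcrb, Uqcrc1, Uqcrc2 and Cycs were 2.54-fold to 7.48-fold higher in sample 1, while Uqcr10 and Uqcrh were higher in sample 2.

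Many nuclear genes of the respiratory chain are known to be controlled by the transcription factors NRF1 and GABP (NRF2), so the promoters of 3 genes of complexes II and III that were higher in sample 1 and hold either motif are shown, with that of Cox6a1 of complex IV. The windows run from 250 bases before to 50 bases after each gene's start and come from RefSeq annotation on GRCm38.p6. Of the 73 genes 59 had at least 1 window, 64 windows in all. The letters GCGCATGCGC (NRF1, the same on both strands) and CCGGAAG (GABP, either strand) were searched. They did not overlap in the windows shown. The NRF1 letters were in 5 of 64 respiratory chain windows (7.81%) and in 0.971% of all 32851 windows, and the GABP letters were in 16 of 64 (25%) and 8.86%. These windows were not matched to the others on base composition. Of the 15 genes 2-fold or more higher in sample 1, 12 had a window and 4 of these held either motif, beside 9 of the 33 with a window among the other genes above the control level. The share was thus 4 of 12 beside 9 of 33, and a match in these letters does not show a bound site. Sdhb (chr4:140961021-140961320, plus strand), Sdhd (chr9:50603800-50604099, minus strand) and Uqcrc1 (chr9:108936398-108936697, plus strand) were among the genes higher in sample 1. Cox6a1 (chr5:115348909-115349208, minus strand), which holds both motifs, had nearly the same signal in both samples. The sequences read 5′ to 3′ along the gene, with the searched letters in capitals.
Sdhb promoter: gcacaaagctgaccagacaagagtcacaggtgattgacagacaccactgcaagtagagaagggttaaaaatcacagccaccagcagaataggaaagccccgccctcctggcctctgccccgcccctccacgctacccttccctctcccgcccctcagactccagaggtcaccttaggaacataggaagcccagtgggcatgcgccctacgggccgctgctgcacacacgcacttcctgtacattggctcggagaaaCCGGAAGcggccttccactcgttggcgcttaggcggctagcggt
Sdhd promoter: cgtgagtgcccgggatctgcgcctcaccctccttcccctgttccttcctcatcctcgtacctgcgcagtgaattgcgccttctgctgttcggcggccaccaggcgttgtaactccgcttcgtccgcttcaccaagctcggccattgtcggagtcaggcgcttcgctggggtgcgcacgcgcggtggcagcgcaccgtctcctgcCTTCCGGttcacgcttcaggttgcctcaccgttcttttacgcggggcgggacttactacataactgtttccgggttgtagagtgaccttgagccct
Uqcrc1 promoter: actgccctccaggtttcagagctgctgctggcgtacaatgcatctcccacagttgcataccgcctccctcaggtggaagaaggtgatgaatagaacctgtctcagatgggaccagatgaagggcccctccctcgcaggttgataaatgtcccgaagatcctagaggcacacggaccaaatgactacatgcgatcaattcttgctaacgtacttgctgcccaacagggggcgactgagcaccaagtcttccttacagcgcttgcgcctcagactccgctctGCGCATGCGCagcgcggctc
Cox6a1 promoter: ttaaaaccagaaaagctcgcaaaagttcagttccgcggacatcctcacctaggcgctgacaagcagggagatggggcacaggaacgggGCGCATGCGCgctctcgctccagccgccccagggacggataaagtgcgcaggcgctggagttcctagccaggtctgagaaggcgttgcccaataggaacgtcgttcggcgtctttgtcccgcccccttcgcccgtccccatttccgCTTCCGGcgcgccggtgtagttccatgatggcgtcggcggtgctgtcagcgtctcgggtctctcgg
The GABP letters lay at bases 257 to 263 of the Sdhb window and, on the other strand, at bases 205 to 211 of the Sdhd window. The NRF1 letters lay at bases 281 to 290 of the Uqcrc1 window. In the Cox6a1 window they lay at bases 89 to 98, with the GABP letters on the other strand at bases 235 to 241.

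Complex I, the largest complex, had a median difference of 0.44, or 1.36-fold, over 25 genes above the control level. Of these, 19 were higher in sample 1 (background 47.1%) and 6 were higher in sample 2. The core subunits of complex I are shared with bacteria and include those with the flavin and iron-sulphur clusters. They were all higher in sample 1, 4 of 4 measured. Ndufv1, the NADH-binding flavoprotein, had 346 in sample 1 and 115 in sample 2, a 3.003-fold difference (log2 mean 7.64 ± 1.12, SD, n = 2). Ndufv2, its iron-sulphur partner, had 48.6 in sample 1 and 4.70 in sample 2, at least 2.43-fold apart. This came from a tagged probe set that was not above the control level in sample 2. The other probe set, untagged, passed in both, with 40.2 in sample 1 and 16.9 in sample 2, at least 2.01-fold apart. The other core subunits differed less. Ndufs3 had 63.2 in sample 1 and 39.9 in sample 2, and Ndufs1, the largest iron-sulphur subunit, had 27.7 in sample 1 and 24.1 in sample 2.

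The accessory subunits of complex I, which surround the core, had a median difference of 0.44 over 20 genes, with 14 higher in sample 1 and 6 higher in sample 2. Ndufa5 had 608 in sample 1 and 201 in sample 2 (3.02-fold), and Ndufb3, a membrane-arm subunit, had 101 in sample 1 and 35 in sample 2 (2.88-fold). Ndufb2, also of the membrane arm, had 253 in sample 1 and 114 in sample 2. Its second probe set gave 116 in sample 1 and 58.6 in sample 2, while its other 2 probe sets gave under 2 in both. Ndufb5 had high signals in both samples, 853 in sample 1 and 502 in sample 2. Ndufa1, Ndufa2, Ndufa8, Ndufa9, Ndufa10, Ndufa13, Ndufb9, Ndufb10, Ndufc1 and Ndufv3 were also higher in sample 1, by differences of 0.08 to 0.85. Of these Ndufa13, known as GRIM-19 from its role in cell death, had 36 in sample 1 and 14.4 in sample 2, at least 1.80-fold apart.

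A smaller group of accessory subunits was higher in sample 2. Ndufa7 had 118 in sample 1 and 246 in sample 2 (2.09-fold). Ndufa3 had 268 in sample 1 and 436 in sample 2, and its weaker probe set gave 5.40 in sample 1 and 36.1 in sample 2. Ndufab1, the mitochondrial acyl carrier protein, which also serves lipoic acid synthesis, had 31.8 in sample 1 and 45.4 in sample 2. Ndufb7, Ndufb8 and Ndufb11 were nearly level, with Ndufb7 at 221 in sample 1 and 234 in sample 2. Of the assembly factors, which help build complex I without remaining in it, Ndufaf1 had 35.1 in sample 1 and 30.9 in sample 2. Ndufaf4 was above the control level in neither sample.

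**Figure D3:**
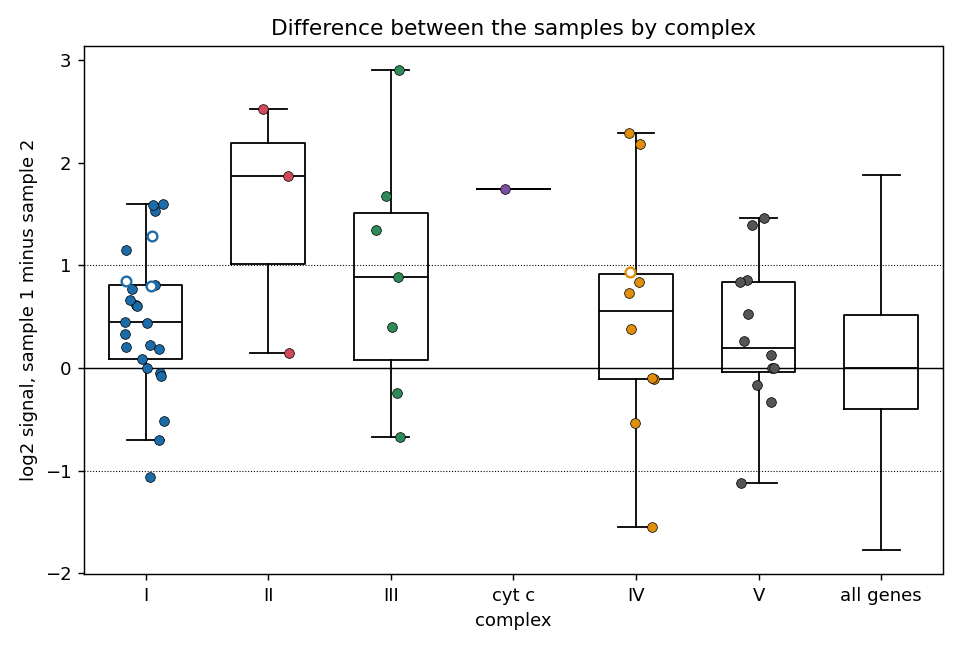
Difference in log2 signal, sample 1 minus sample 2 (y axis), for the 58 respiratory chain genes above the control level, grouped by complex along the x axis, with all 4707 named genes at the right. Points are genes (open where 1 signal is under the floor, so that the value is a lower bound), boxes span the quartiles with the median as a line, whiskers reach the last value within 1.5 box lengths, and dotted lines mark 2-fold. The medians are 0.44 for complex I, 1.87 for II, 0.89 for III, 0.55 for IV and 0.20 for V.

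Complex IV, cytochrome c oxidase, had genes far apart in both directions. Of its 15 genes 10 passed the control level (background 57.0%). Their median difference was 0.55. Sample 1 had more signal for 6 and sample 2 for 4. Over all 15 measured genes, with no filter, the median was 0, and with untagged probe sets alone it was 0.14. Cox6c had 1498 in sample 1 and 307 in sample 2, a 4.88-fold difference (log2 mean 9.41 ± 1.62, SD, n = 2), but its other 2 probe sets had 1.60 to 5.85 and bear no direction. Cox5b, which holds a zinc ion, went the opposite way with 166 in sample 1 and 487 in sample 2, a 2.93-fold difference (8.15 ± 1.10, SD, n = 2). Cox4i1, the regulatory subunit that binds ATP, had 55.2 in sample 1 and 80.1 in sample 2, and its other probe set gave 27.7 in sample 1 and 37.3 in sample 2. Cox7b had 194 in sample 1 and 149 in sample 2. Cox5a, the partner of Cox4i1 in assembly, had 14.8 in sample 1 and 8.40 in sample 2 and was not above the control level in sample 2.

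Several subunits of complex IV occur as tissue isoforms, so isoform partners were set side by side, sample against sample. The heart and skeletal muscle isoforms had higher signals in sample 2. Cox6a2 had 10.4 in sample 1 and 244 in sample 2, at least 12.2-fold apart. Its widely expressed partner Cox6a1 was nearly level, with 1755 in sample 1 and 1888 in sample 2. Cox8b had 9.70 in sample 1 and 76.3 in sample 2, at least 3.82-fold apart, by 1 probe set. Its other probe set gave 1.85 in sample 1 and 4.50 in sample 2, below the control level in both. The partner Cox8a was above the control level in neither sample. Cox7a1 had 1.95 in sample 1 and 22.4 in sample 2, just past the floor. The widely expressed partner went the other way, as Cox7a2 had 246 in sample 1 and 54.3 in sample 2 (4.53-fold), and Cox7a2l, linked to supercomplex assembly, had 89.7 in sample 1 and 54.2 in sample 2.

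All 3 muscle isoforms were thus above the control level in sample 2 and not in sample 1. Of 15 other muscle and heart genes on the array, 6 passed the control level in both samples, beside a background of 57.0% of all named genes. Another 1 passed in sample 1 alone and 3 in sample 2 alone. The summed signal was 205 in sample 1 and 226 in sample 2. The genes named from this list, besides Actc1 and Tnnc2, were chosen after their values were seen. Those above the control level in sample 2 alone were the skeletal actin gene Acta1, with 3.55 in sample 1 and 13.7 in sample 2, the desmin gene Des, with 8.25 in sample 1 and 15.35 in sample 2, and the myoglobin gene Mb, with 3 in sample 1 and 11.4 in sample 2, all under the floor. The cardiac actin gene Actc1 had 41.4 in sample 1 and 76.4 in sample 2, and the troponin gene Tnnc2 had 23.25 in sample 1 and 37.7 in sample 2. Other genes of the list were brighter in sample 1. The myosin gene Myh7 had 40.05 in sample 1 and 8.25 in sample 2, and Myh4 had 28.75 in sample 1 and 24.1 in sample 2. Ckm had 15.75 in sample 1 and 10.25 in sample 2, and Tnni3 had 13.55 in sample 1 and 10.85 in sample 2. Tnnt2 had 15.55 in sample 1 and 11.3 in sample 2, and Myh2 had 3.25 in sample 1 and 1.3 in sample 2. The cardiac genes Myh6, Myl2, Myl3 and Tnnc1 were under 3 in both samples. The part of muscle RNA in the signals of these isoforms was not tested. The isoforms known from testis had no common direction. Cox6b2 had 66.5 in sample 1 and 37.2 in sample 2 by 1 probe set, but 26.0 in sample 1 and 32.3 in sample 2 by another. Its partner Cox6b1 had 38.2 in sample 1 and 18.8 in sample 2. Cox8c had 96.6 in sample 1 and 103 in sample 2, while the second probe set gave 3.35 in sample 1 and 1.05 in sample 2.

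**Figure D4:**
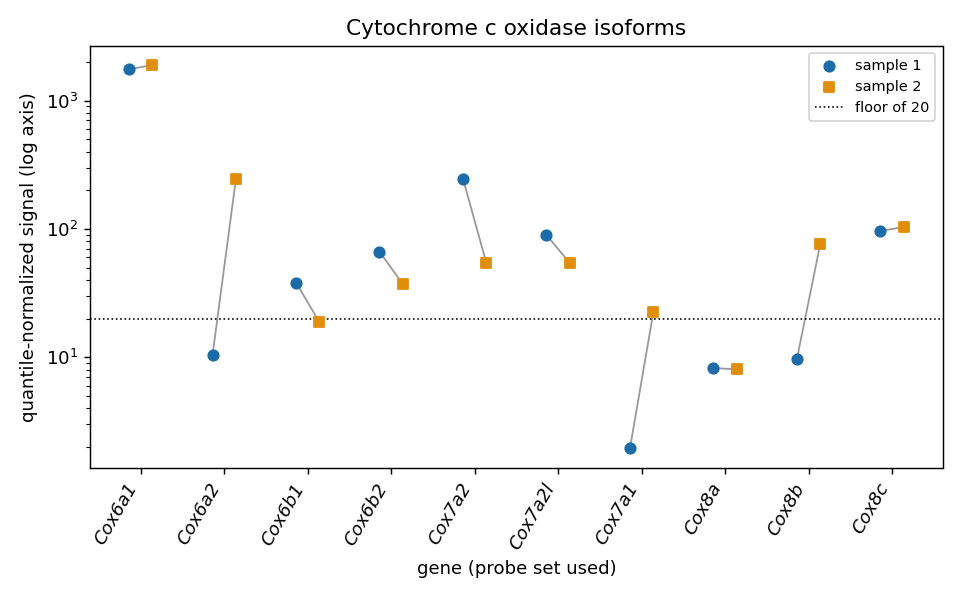
Quantile-normalized signal (log axis) of isoform partners of complex IV in sample 1 (blue circles) and sample 2 (orange squares), with a grey line joining the samples of a gene and a dotted line at the floor of 20. Cox6a2, Cox7a1 and Cox8b lie under the floor in sample 1 and above it in sample 2, Cox6a1 is nearly level, and Cox7a2 is higher in sample 1.

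Complex V, the ATP synthase, had a median difference of 0.20 over 12 genes, where 7 had more signal in sample 1, 3 had more in sample 2 and 2 stayed at the floor. It was 0.40 with no floor and 0.40 over genes with both signals above the floor. However, it was 0.06 over all measured genes and 0.13 with untagged probe sets alone. The remaining alternatives gave 0.16 (centring on the median) to 0.30 (deposited scaling). The catalytic F1 head was split. Its alpha subunit gene Atp5a1 had 1337 in sample 1 and 737 in sample 2 (log2 mean 9.96 ± 0.61, SD, n = 2). The gamma subunit gene Atp5c1, the rotating shaft, had 174 in sample 1 and 63.2 in sample 2 (2.76-fold), and 71.3 in sample 1 and 43.3 in sample 2 by its other probe set. The delta subunit gene Atp5d went the other way, with 55.1 in sample 1 and 119.6 in sample 2 (2.17-fold) by a tagged probe set. The 4 of its 5 probe sets above the control level were all higher in sample 2, and the untagged one of them gave 18 in sample 1 and 24 in sample 2, a difference of -0.26. Atp5e, the epsilon subunit, had 2.90 in sample 1 and 41.4 in sample 2 and was above the control level only in sample 2. Delta and epsilon sit together at the foot of the shaft.

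The membrane part and the stator stalk of complex V had a median difference of 0.13 over 9 genes. Atp5md, a small membrane subunit also called DAPIT, had 520.3 in sample 1 and 198 in sample 2 (2.63-fold). Atp5l, the g subunit, had 96.4 in sample 1 and 54.1 in sample 2, and its other probe set was under the floor in both. Atp5j, coupling factor 6 of the stalk, had 125 in sample 1 and 86.9 in sample 2. Atp5o, which joins the stalk to the head, was nearly level at 98.0 in sample 1 and 109.97 in sample 2, as were Atp5mpl at 239 in sample 1 and 199 in sample 2 and Atp5pb at 27.9 in sample 1 and 25.6 in sample 2. The c subunits form the proton-driven ring. Atp5g2 had 102 in sample 1 and 128 in sample 2, and 17 in sample 1 and 18 in sample 2 by its other probe set. Atp5g1 was under the floor in both samples by both its probe sets, as was Atp5j2 by its 1 probe set, and neither gives a direction. Atp5k had 10.3 in sample 1 and 21.3 in sample 2.

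Of the 15 genes not above the control level in both samples, 6 were above it in sample 1 alone, namely Ndufb6, Ndufc2, Ndufs4, Sdha, Uqcr11 and Cox5a. Another 6 were above it in sample 2 alone, namely Ndufa6, Cox6a2, Cox7a1, Cox8b, Atp5e and Atp5k. Ndufa12, Ndufaf4 and Cox8a were above it in neither. Ndufb6 had the largest such signal on the side of sample 1, with 48.0 in sample 1 and 6.50 in sample 2. Over all named genes 64.3% passed in sample 1, 71.0% in sample 2 and 57.0% in both. More of them thus passed in sample 2 alone than in sample 1 alone. The control level was also lower in sample 2 (8.91, beside 12.1 in sample 1). Of the 21 genes with several probe sets, 6 had at least 2 above the control level in both samples and off the floor in at least 1. In 5 of these 6 the probe sets pointed the same way, towards sample 1 for Atp5c1, Cyc1 and Ndufb2 and towards sample 2 for Atp5d and Cox4i1. The exception was Cox6b2.

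Most genes of the Krebs cycle, which feeds the respiratory chain, were also higher in sample 1. Of 13 measured Krebs cycle genes 12 were above the control level (background 57.0%). Of these, 11 were higher in sample 1 (background 47.1%), with a median difference of 0.78. By 2-fold or more 5 of 12 were higher there (background 11.0%). Mdh2, the mitochondrial malate dehydrogenase, had 897 in sample 1 and 209.7 in sample 2 (4.28-fold), and Fh1, the fumarase, had 115 in sample 1 and 30.6 in sample 2 (3.76-fold). Sdhb and Sdhd, which act in the same cycle just before fumarase, are described above. Other genes that reduce ubiquinone or serve its synthesis had a median of 0.83 over 7 genes, with 4 of 7 higher in sample 1 and 3 of 7 in sample 2. Over the 4 genes with both signals above the floor the median was -0.26, with 1 higher in sample 1 and 3 in sample 2. In that list Dhodh, the pyrimidine synthesis enzyme of the inner membrane, had 149 in sample 1 and 27.9 in sample 2 by a tagged probe set. Etfa, of the electron transfer flavoprotein, had 46.3 in sample 1 and 17.9 in sample 2, the latter under the floor. Its partner Etfb was nearly level, with 60.3 in sample 1 and 61.3 in sample 2. Gpd2 went the other way, with 99.1 in sample 1 and 206.7 in sample 2 (both chosen after their values were seen).

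A list of exchange carriers, outer membrane channels, uncoupling proteins, mitochondrial creatine kinases and the ATP synthase inhibitor Atpif1 had a median difference of 0.71 over 8 genes, of which 5 had more signal in sample 1 and 3 (Ckmt1, Ckmt2 and Ucp3) stayed at the floor. The channel gene Vdac3 had 76.4 in sample 1 and 31.2 in sample 2, and the ADP/ATP carrier gene Slc25a4 had 159 in sample 1 and 72.7 in sample 2. Assembly factors of the chain outside the Nduf and Cox names had a median of 0.19 over 10 genes, 6 of them higher in sample 1. Over the 7 with both signals above the floor it was -0.19, with 3 higher in sample 1 and 4 in sample 2. Lrpprc, which stabilises mitochondrial messenger RNA, had 59.8 in sample 1 and 11.7 in sample 2, and Foxred1, a complex I assembly factor, had 84.4 in sample 1 and 38.5 in sample 2. The pyruvate dehydrogenase list had a median of 0.02 over 6 genes. Its alpha subunit gene Pdha1 had 42.8 in sample 1 and 13.45 in sample 2, whereas the beta subunit gene Pdhb had 35.1 in sample 1 and 63.2 in sample 2.

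Nuclear regulators of mitochondrial genes did not lean to sample 1. Their median difference was 0 over 11 genes above the control level, of which 3 had more signal in sample 1 and 4 in sample 2. Gabpa, Polg2 and Polrmt stayed at the floor, and Tfb2m was equal at 25.95 in both (chosen after their values were seen). Yy1, a zinc finger factor that acts on many promoters, had 91.4 in sample 1 and 425 in sample 2, 4.65-fold higher in sample 2. Polg, the mitochondrial DNA polymerase gene, had 13.35 in sample 1 and 30.8 in sample 2. Gabpb1, a subunit of GABP, was nearly level with 44.4 in sample 1 and 46.7 in sample 2 (chosen after its values were seen). Tfam, the packaging factor of mitochondrial DNA, and the coactivator gene Ppargc1a were not above the control level, with at most 1.5 for Tfam and 5.5 for Ppargc1a in either sample.

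**Figure D5:**
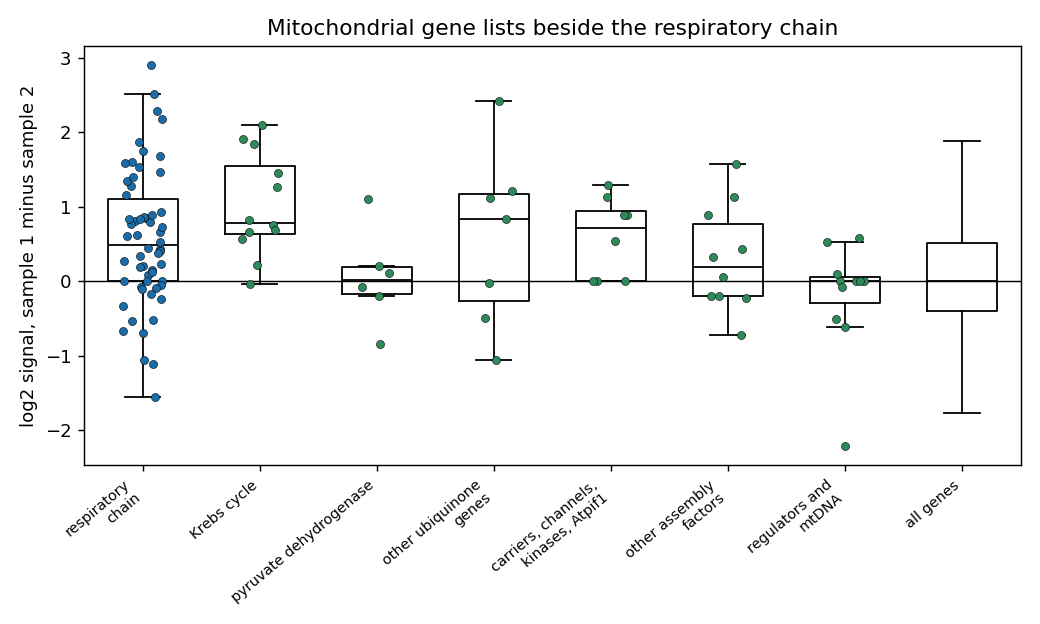
Difference in log2 signal, sample 1 minus sample 2 (y axis), for the respiratory chain genes, 6 other mitochondrial gene lists and all named genes, each above the control level in both samples. Points are genes, boxes span the quartiles with the median as a line, and whiskers reach the last value within 1.5 box lengths. The medians are 0.49 for the respiratory chain, 0.78 for the Krebs cycle and 0 for the regulators.

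Genes of other programmes also differed between the 2 arrays. Of 11 immediate early genes above the control level 0 were higher in sample 1, with a median difference of -3.25, and Fos had 41.7 in sample 1 and 839 in sample 2 and Atf3 12.6 in sample 1 and 244 in sample 2. Markers of other blood cells went both ways, with 12 of 15 above the control level (background 57.0%) and a median of -0.31. Their summed signals were 3272 in sample 1 and 2997 in sample 2. The myeloid granule gene Mpo had 1862 in sample 1 and 288 in sample 2. The alpha globin gene Hba-a1 had 30.1 in sample 1 and 670 in sample 2. Other genes of these lineages did not all follow (chosen after their values were seen). Elane and Prtn3 were also higher in sample 1, but Ngp, Camp, Ltf and S100a8 were higher in sample 2, and S100a9 was nearly level. Ngp had 59.95 in sample 1 and 275 in sample 2. Of the erythroid genes, Slc4a1 was also higher in sample 2, while Alas2 was above the control level in neither sample. In such bulk samples a different mix of cells and a different RNA content per cell cannot be told apart, and the part of these genes in the respiratory chain difference was not tested.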

How the data were processed

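RNA of 2 samples of 1 group was measured on arrays of 12488 probe sets. The deposited values were linear signal intensity values, 1 per probe set, with a mean of 53.9 in both samples and medians of 15.9 in sample 1 and 14.5 in sample 2. The sources used here do not give how the authors summarised and scaled these intensities. On an array the number of samples limits the precision.

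Both columns were quantile-normalized in Python 3.11.15 with numpy 2.4.6, signals under 20 (57.6% of values) were set to 20, and log2 was taken. Names came from the platform annotation: of 12422 probe sets besides 66 controls, 10833 named 1 gene, 396 several and 1193 none. The 10 probe sets that named a respiratory chain gene with another gene were left out. Where a gene had several probe sets, the one brightest on average over both samples on the log2 scale stood for it. With 1 group of 2 samples no test was made and no p-value is given. The steps were tested on simulated arrays with a planted shift. Every respiratory chain gene could be named, and of each other list the 2 genes most different. Sorting and lineage genes, Tfam and Ppargc1a were named after their values were seen, as were the others marked so and the 3 genes at the floor in the carrier list. The genes, lists and motifs were chosen with earlier results of these data known. The alternatives covered the control level, single samples, 2 other scalings, no floor, an offset of 32, no filter, the mean over probe sets, and 2 added after the data were seen (untagged probe sets and both signals above the floor).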

Additional observations from a re-analysis of the deposited data

How the results depend on the processing

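The median difference of the respiratory chain genes stayed towards sample 1 under the 8 alternatives run, between 0.27 with no filter on low signals and 0.57 with the scaling as deposited. Relative to the median of all named genes it was 0.53 when the deposited scaling was kept and 0.43 after centring on the median. The count above the control level was 48 of 73 when every probe set of a gene had to pass (background 44.9%). It was 52 of 73 at a fixed level of 20 (background 40.6%). Under other levels it was up to 69 of 73, at the median of the bacterial probe sets, which 85.4% of all named genes passed. With untagged probe sets it was 46 of 60 (background 53.7%). It was 64 when a gene had to pass in sample 1, whatever sample 2 gave (background 64.3%). It was also 64 when it had to pass in sample 2, whatever sample 1 gave (background 71.0%). The count of genes 2-fold or more higher in sample 1 was 7 of 46 with untagged probe sets (background 11.3%). In the other direction it was 1 of 58 with an offset of 32 and 6 of 73 over all measured genes. No background was computed for the counts in that direction. The complex II median was 1.04 over all measured genes and 1.01 with untagged probe sets. Fewer genes entered the untagged comparison, and more the unfiltered one, and the cause of the moves was not tested beyond this. Of 498 values of single genes under alternatives, 480 lay within 1 SD (0.76) of the reported value, 18 moved further and 0 changed sign after a difference of 2-fold or more. Many of the 480 could not move, so this count does not measure robustness. Taking off the filter leaves every gene's value as it was. Averaging over probe sets does so for genes with 1 probe set, and the untagged setting where the same probe set is used. Signals near the floor limit what can be said of weak genes. No paired analysis was possible because there is only 1 group.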
